A study of Canis lupus familiaris with 6 samples.

Results

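The genes described here are 10 components and direct targets of bone morphogenetic protein (BMP) signalling, taken by symbol from a table of 12851 genes: the ligands BMP2 and BMP4, the receptors BMPR1A and BMPR2, the signal transducer SMAD1, the inhibitory SMAD6, and ID1, ID2, ID3 and ID4. All 10 symbols matched, each on a single row. After a filter on low values (a mean of at least 10 normalized counts over the 6 libraries), 9 of the 10 were tested among 12349 genes, and ID4 was not.

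BMP ligands are secreted dimers that bring type I receptors such as BMPR1A together with type II receptors such as BMPR2. The activated type I receptor phosphorylates SMAD1, SMAD5 and SMAD9, which enter the nucleus with SMAD4 and switch on target genes, among them the ID genes and SMAD6. ID proteins carry a helix-loop-helix domain without a DNA-binding region, so they pair with E-proteins and keep these from binding DNA. SMAD6 acts back on the pathway as an inhibitor. In kidney, BMP signalling takes part in ureteric branching, nephron formation and the maintenance of tubular epithelium.

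RNA was measured in MDCK Type II cells, an established canine kidney epithelial line. The 3 WT libraries came from control cells and the 3 KO libraries from E-cadherin knock out MDCK cells. No other agent was named for either group. The number of KO clones, and any separate cultures behind the 3 libraries of each group, are not stated in the labels. The p-values therefore rest on the variation among these libraries alone, and that variation may be technical. A difference between clones and a difference due to E-cadherin loss cannot be told apart. The submitters' texts also differ on density, one giving confluent dishes and the other cells short of confluence.

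Library totals were 18281549 to 19386796 normalized counts. The targeted transcript CDH1 lay between 38542 and 39643 normalized counts in WT and between 1115 and 1237 in KO, in the direction that the labels give. Of 10 epithelial markers, the 8 that could be tested were abundant in both groups, at a summed level of 53787 to 57504 in WT and 49298 to 51750 in KO. Of these 8 markers 1 was called higher in KO and 5 lower, where 23.6% of all tested genes were called higher and 24.5% lower. Among 8 fibroblast markers only PDGFRA was tested, at 17.7 to 20.6 in WT and 28.7 to 40.4 in KO. Among 8 immune markers CD14 lay at 17.7 to 22.8 in WT and 46.8 to 49.8 in KO, and CD79A at 12390 to 14011 and 13507 to 14608. The other immune markers, PTPRC and CD3E among them, were not analysed here, and the source of the CD79A signal was not tested. None of the 7 endothelial markers was analysed here. The part of these marker differences in the results below was not tested.

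ID1, ID2 and ID3 rose in the KO cells, 4.10-fold, 2.21-fold and 3.64-fold, and SMAD6 rose 1.89-fold. Both ligands fell, BMP2 by 0.81 and BMP4 by 0.35 on the log2 scale, and so did SMAD1, by 0.33. The receptors BMPR1A and BMPR2 did not pass the test. In all 4 of the 9 tested members were called higher and 3 lower, where 23.6% of all tested genes were called higher and 24.5% lower. The median log2 fold change of the 9 was 0.14, against -0.01 over all tested genes. Fold changes here and below are fitted with limma on log2(normalized count + 1), KO over WT, and adjusted p-values are limma's with Benjamini-Hochberg adjustment over all tested genes. A call means an adjusted p under 0.05. In bulk RNA, a change in the share of cells that hold a transcript and a change in the amount per cell cannot be told apart.

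**Figure D1:**
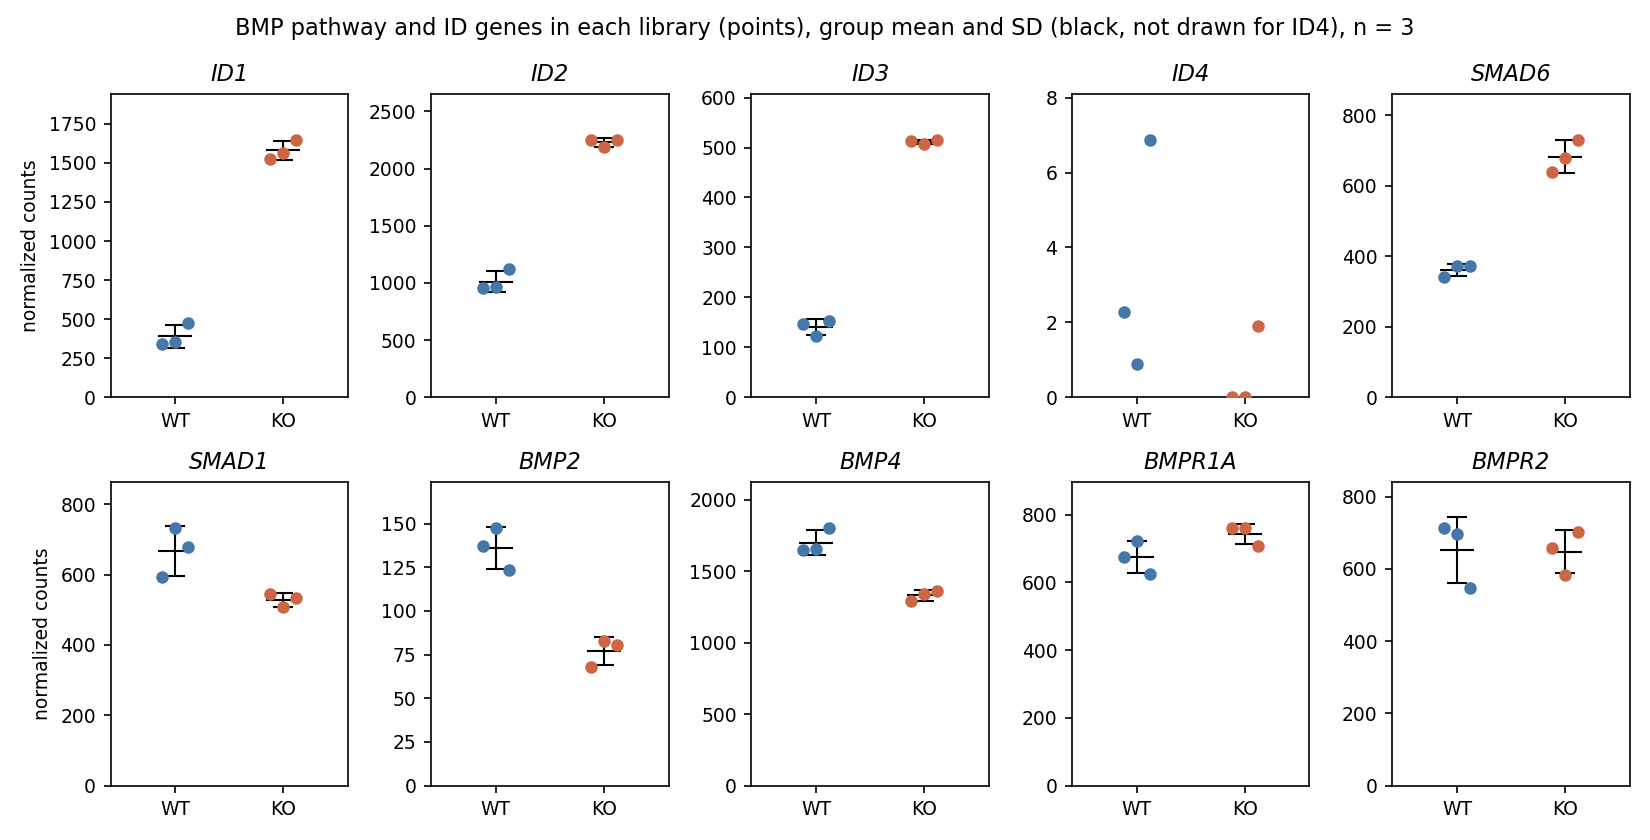
Normalized counts of the 10 genes in each of the 3 WT (blue) and 3 KO (orange) libraries, with the group mean and SD in black (not drawn for ID4); each vertical axis starts at 0 and has its own scale. The KO points lie above all WT points for ID1, ID2, ID3 and SMAD6, below them for SMAD1, BMP2 and BMP4, and the groups overlap for BMPR1A and BMPR2.

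Of the ligands, BMP4 (ENSCAFG00845004370), which patterns the ureter and kidney mesenchyme, was at 1647, 1656 and 1800 normalized counts in WT against 1292, 1341 and 1364 in KO. The groups did not overlap. In KO the mean was 78.3% of that in WT (log2 fold change -0.35, SE 0.055, adjusted p = 0.00013). BMP2 (ENSCAFG00845027004), a close relative that binds the same receptors, was at 137, 147 and 123 in WT against 67.9, 82.9 and 80.7 in KO. Every KO library again lay below every WT library. The mean in KO was 56.8% of that in WT (log2 fold change -0.81, SE 0.14, adjusted p = 0.000234). The count of BMP2 relative to BMP4 within each library was 0.0832, 0.0889 and 0.0685 in WT against 0.0525, 0.0618 and 0.0591 in KO, without overlap.

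Neither receptor showed a change that passed. BMPR1A (ENSCAFG00845006910), a type I receptor with kinase activity toward SMAD1, was at 675, 721 and 626 in WT against 759, 759 and 707 in KO. The lowest KO library lay under the highest WT library. The log2 fold change was 0.14 with a 95% confidence interval of -0.01 to 0.29 (adjusted p = 0.117), and it passed without WT replicate 2 (0.19, adjusted p = 0.0334). BMPR2 (ENSCAFG00845015459), the type II receptor that activates the type I receptor, was at 713, 697 and 548 in WT against 658, 584 and 703 in KO. The groups overlapped throughout, and the 95% confidence interval of its log2 fold change ran from -0.23 to 0.22 (adjusted p = 0.981).

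The SMADs of the set moved in opposite directions. SMAD1 (ENSCAFG00845012104), which carries the signal to the nucleus, was at 593, 732 and 678 in WT against 544, 507 and 533 in KO. WT replicate 1 lay nearest to the KO values, and the groups did not overlap. The log2 fold change was -0.33 (SE 0.081, adjusted p = 0.00392). SMAD6 (ENSCAFG00845016415), itself a target of the pathway and its inhibitor, was at 341, 371 and 371 in WT against 638, 678 and 730 in KO. The lowest KO library was well above the highest WT library. Its log2 fold change was 0.92 (SE 0.076, adjusted p = 3.43e-07). Within libraries, the count of SMAD6 relative to SMAD1 was 0.507 to 0.575 in WT and 1.17 to 1.37 in KO. With SMAD6 above WT and SMAD1 below it in every KO library, this ratio had to separate.

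ID1, ID3 and ID2 had the 3 highest fold changes of the set. ID1 (ENSCAFG00845018646) was at 343, 352 and 472 normalized counts in WT against 1527, 1566 and 1648 in KO. WT replicate 3 was the highest WT library, and still far below the lowest KO library. The log2 fold change was 2.03 (95% confidence interval 1.80 to 2.27, adjusted p = 4.13e-08), and 177 of the 12349 tested genes (1.43%) had a higher one. ID3 (ENSCAFG00845015085), like ID1 a common early target of BMP, was at 147, 123 and 152 in WT against 512, 508 and 516 in KO. The KO libraries lay close together and above every WT library. The log2 fold change of ID3 was 1.86 (95% confidence interval 1.65 to 2.07, adjusted p = 3.52e-09), a value exceeded by 216 tested genes (1.75%).

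ID2 (ENSCAFG00845022749), a family member that also binds the retinoblastoma protein, was at 954, 960 and 1121 in WT against 2250, 2185 and 2252 in KO. As for ID1, WT replicate 3 was the highest WT library, and the groups did not overlap. The log2 fold change was 1.14 (95% confidence interval 1.00 to 1.28, adjusted p = 6.89e-09), exceeded by 543 tested genes (4.40%). ID1, ID2 and ID3 were each called and at least 2-fold higher, as were 5.34% of all tested genes. ID4 (ENSCAFG00845016386), the fourth member, was listed at 2.28, 0.890 and 6.88 in WT against 0, 0 and 1.91 in KO. These values lie under the filter. With no filter its log2 fold change was -1.36 (adjusted p = 0.121). For ID4 the authors' deposited table has a log2 fold change of -2.46 with an SE of 1.14 and an adjusted p of 0.0679.

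The ID genes did not rise in equal proportion. The count of ID1 relative to ID2 within a library was 0.359, 0.367 and 0.421 in WT against 0.678, 0.717 and 0.732 in KO. ID2 relative to ID3 went the other way, at 6.50, 7.83 and 7.36 in WT against 4.39, 4.30 and 4.37 in KO. Neither ratio overlapped between groups. ID1 relative to ID3 did overlap, at 2.33, 2.87 and 3.10 in WT against 2.98, 3.08 and 3.20 in KO. These ratios, and those of BMP2 to BMP4 and SMAD6 to SMAD1 above, were set up after the values had been seen and are given without a test. They depend on transcript length and say nothing of which gene was more abundant. ID1 also lay among neighbouring genes that were higher in KO, as described below. The fold change of ID1 was 2.20 times the median of its 20 nearest tested neighbours. For ID2 the value was 2.25 times and for ID3 3.52 times. The part of the neighbours' shift in the ratios within libraries was not tested.

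**Figure D2:**
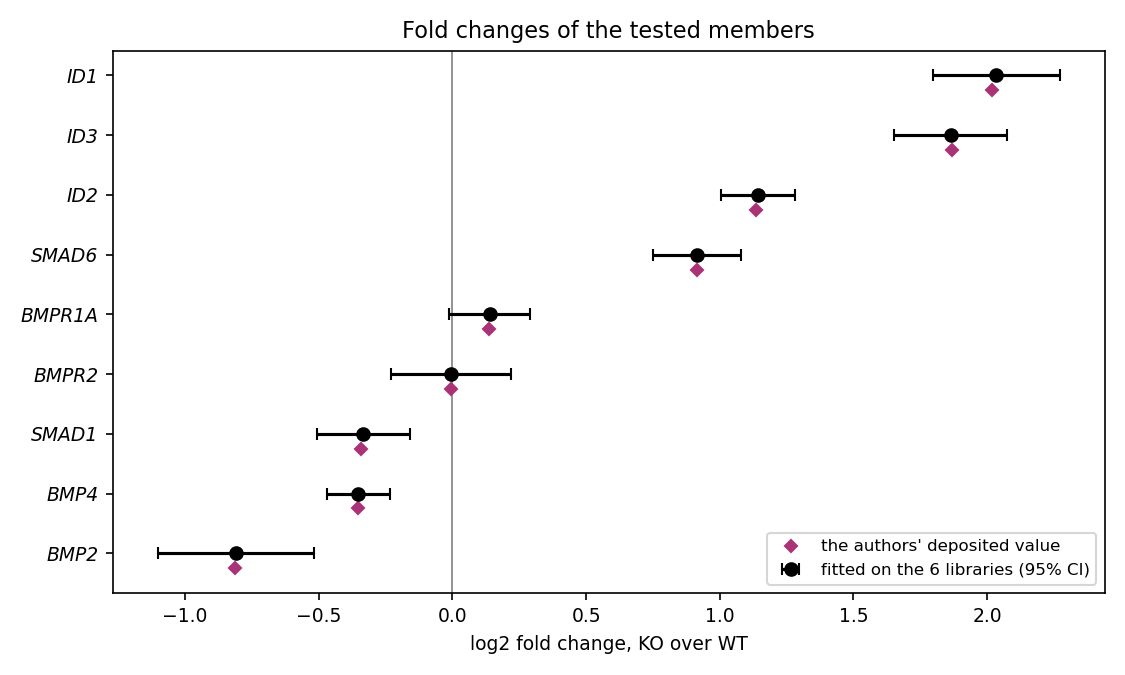
Log2 fold change (KO over WT) of the 9 tested members, as fitted on the 6 libraries with 95% confidence intervals (black) and as given in the authors' deposited table (purple diamonds). ID1 is highest at 2.03 and BMP2 lowest at -0.81; the intervals of BMPR1A and BMPR2 include 0, and the deposited values fall inside every interval.

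The 4 members that rose and the 3 that fell were those whose groups did not overlap. Over all tested genes, the KO libraries lay wholly above WT in 27.8% and wholly below in 28.6%, together 56.4%. With 3 libraries against 3, an exact two-sided permutation test of a single gene cannot go below p = 0.10, and each of these 7 members reached that floor.

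ID1 lay in a stretch of neighbouring genes that were higher in KO. By gene order in the dog assembly UU_Cfam_GSD_1.0, its 10 nearest tested genes on each side had a median 1.87-fold higher in KO, and 19 of the 20 were called higher. The adjacent HM13, an intramembrane protease gene, rose 1.81-fold, and BCL2L1, which encodes the survival protein BCL-XL, rose 1.85-fold. In the fit on all 6 libraries ID1 exceeded each of the 20. The DNA methyltransferase gene DNMT3B lay close to it at a log2 fold change of 2.01, and above it with a pseudocount of 0.5 (2.037 against 2.036), without WT replicate 2 (2.24 against 1.97) and without KO replicate 2 (2.09 against 2.04). Of the 20, the stress-response gene TRIB3 was lowest, at 0.06 (adjusted p = 0.429). DNMT3B and TRIB3 were chosen after their values were seen. Relative to the median of its neighbours, ID1 was 2.20-fold higher. Across the 160 tested genes from SMOX to UBE2V1, a run whose limits were drawn earlier from these same data, the median was 1.96-fold higher and 5 genes had a higher fold change than ID1. The part of this shared shift in the rise of ID1 was not tested.

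No other member that changed had neighbours nearly all called in the same direction. The 20 neighbours of ID2 had a median log2 fold change of -0.02, with 6 called higher and 6 lower, and none reached the value of ID2. On either side of it, RNF144A, a ubiquitin ligase gene, rose 1.52-fold and KIDINS220, a scaffold of neurotrophin signalling, fell by 0.25 on the log2 scale. The neighbours of ID3 had a median of 0.05, with 8 higher and 5 lower, and 1 exceeded ID3. Around SMAD6 the median was 0.09, with 9 called higher and 4 lower, and 1 of the 20 exceeded SMAD6. Over all tested genes, 23.6% were called higher and 24.5% lower. The part of these neighbours' shift in the rise of SMAD6 was not tested. One of the 2 nearest tested neighbours of SMAD6 was SMAD3, a transducer of TGF-beta and activin, which fell by 0.46 (adjusted p = 0.000113). The other, LCTL, rose 1.64-fold between low means of 15.8 in WT and 26.2 in KO (adjusted p = 0.0396). BMP2 is on the same chromosome as ID1 but among genes with a median of -0.01. Its nearest tested neighbours were TMX4, a thioredoxin-related membrane protein gene, at -1.32 (adjusted p = 4.84e-06), and FERMT1, kindlin-1, at 0.03 (adjusted p = 0.897). Around BMP4 (log2 fold change -0.35) the median was -0.19. Of its 20 neighbours 10 were called lower and 6 higher, where 24.5% of all tested genes were called lower and 23.6% higher. The part of these neighbours' shift in the fall of BMP4 was not tested. Around SMAD1 the median was -0.10, with 4 lower and 1 higher.

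**Figure D3:**
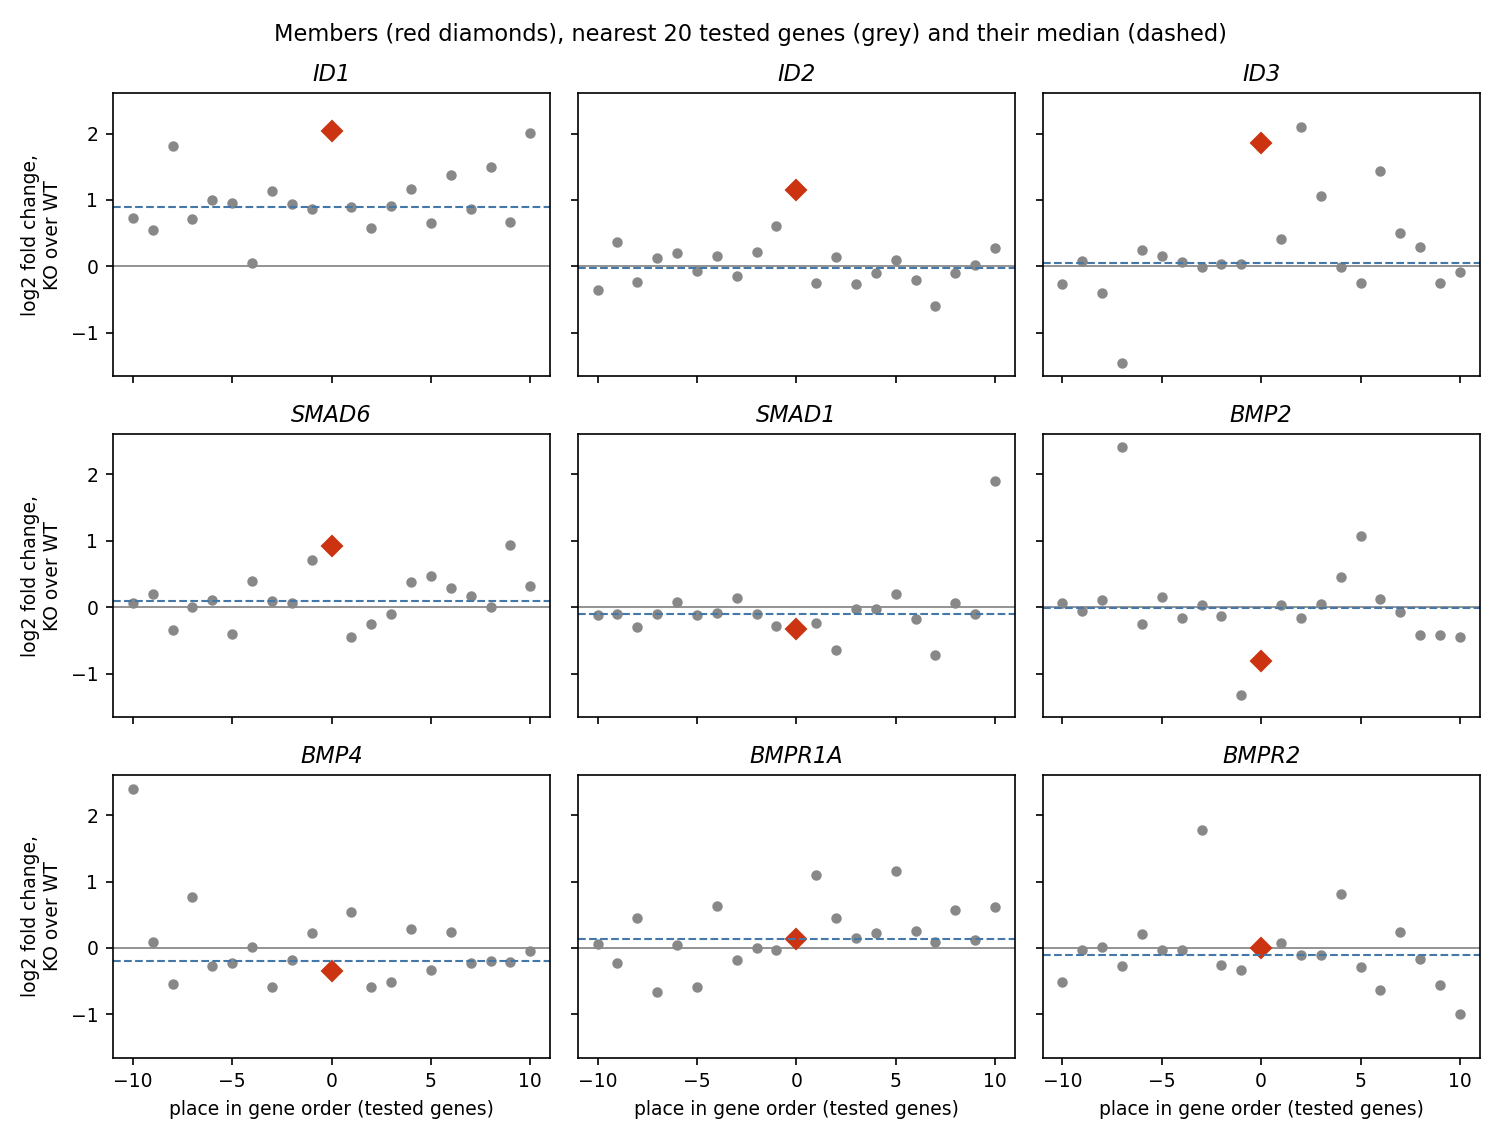
Log2 fold change (KO over WT) of each tested member (red diamond, place 0) and of its 10 nearest tested genes on each side (grey points) by order along the chromosome, with the neighbours' median as a dashed line. The neighbours of ID1 lie around 0.90 on the log2 scale, whereas the medians in the other panels lie between -0.19 and 0.13.

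The rest of the pathway was covered by 6 lists holding 86 further genes, of which 51 were tested, 2 fell under the filter and 33 were not analysed here. Among the 51, 13 were called higher and 15 lower (54.9% called, against 48.1% of all tested genes). Their median log2 fold change was -0.06.

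Outside the cell, 1 further BMP ligand was tested. BMP7, which maintains nephron progenitors and the tubular epithelium, was at 1049, 1051 and 1095 in WT against 1305, 1317 and 1345 in KO. It rose 1.24-fold (adjusted p = 0.000249), the opposite direction to BMP2 and BMP4. Of 9 tested secreted antagonists and modulators 3 rose, 3 fell and 3 did not pass (median -0.07). NOG, noggin, which binds BMP ligands and blocks them, rose from 58.0, 35.9 and 51.7 to 104, 96.8 and 92.5 (log2 fold change 1.02, adjusted p = 0.000411). FST, follistatin, a binder of activin and of some BMPs, fell from 3672 ± 182 to 889 ± 52.6 (SD, n = 3). FSTL1, a secreted glycoprotein of the follistatin-like group, was at 291, 378 and 343 in WT, whereas all 3 KO libraries list it at 0. FSTL3, which like follistatin binds activin, rose by 0.18 (adjusted p = 0.0203), which failed when KO replicate 3 was left out (adjusted p = 0.0956). TWSG1, twisted gastrulation, which modulates BMP binding to chordin, fell by 0.24 (adjusted p = 0.0119), which failed when WT replicate 1 (0.0559) or KO replicate 2 (0.0749) was left out. BMP1, a chordin-cleaving protease and not a BMP ligand, rose 1.16-fold (adjusted p = 0.0343), which failed when WT replicate 2 (0.111), KO replicate 1 (0.0813) or KO replicate 2 (0.137) was left out, values in brackets here being the adjusted p without that library. In limma without trend and robust options, FSTL3, TWSG1 and BMP1 also did not pass (adjusted p of 0.0725, 0.0518 and 0.0790).

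At the membrane, 1 of 7 further receptors and co-receptors rose, 2 fell and 4 did not pass (median -0.04). BAMBI, a decoy receptor without a kinase and a known target of BMP and TGF-beta signalling, was at 45.6, 45.1 and 48.1 in WT against 2.95, 0.900 and 2.88 in KO. Its log2 fold change was -3.94 (adjusted p = 8.19e-07), a size that depends on the pseudocount at such low KO values and was -2.84 with a pseudocount of 5. NEO1, neogenin, a co-receptor that binds repulsive guidance molecules, fell from 43.1, 28.1 and 32.5 to 9.09, 8.13 and 13.4 (adjusted p = 0.000274). The type II receptor ACVR2B rose 1.33-fold (adjusted p = 0.0184), which failed when WT replicate 3, KO replicate 1 or KO replicate 2 was left out (adjusted p of 0.0503, 0.0561 and 0.0705) and with quantile normalization (0.109). The type I receptors BMPR1B and ACVR1, chosen after their values were seen, had 95% confidence intervals of -0.22 to 0.14 and -0.17 to 0.05.

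Inside the cell, 3 of 18 tested SMADs and SMAD regulators rose, 6 fell and 9 did not pass (median -0.09). SMAD9, a BMP transducer like SMAD1, rose from 58.9, 67.1 and 62.3 to 206, 204 and 191 (log2 fold change 1.66, SE 0.12, adjusted p = 8.33e-08), while SMAD1 fell. The third BMP transducer, SMAD5, was at 1001 ± 85.1 and 968 ± 59.2 (SD, n = 3), with a 95% confidence interval of -0.20 to 0.11. SMAD7, the inhibitory SMAD that also acts on TGF-beta receptors, fell by 0.46 (adjusted p = 0.000871), opposite to SMAD6. SMAD5 and SMAD7 were chosen after their values were seen. SKIL, a SMAD corepressor induced by TGF-beta, fell by 1.11 (adjusted p = 6.17e-08). Of the phosphatases reported to act on SMADs, CTDSP2 rose 1.49-fold (adjusted p = 1.01e-06) and PPM1A fell by 0.47 (adjusted p = 1.74e-05). TOB2, an antiproliferative adaptor, fell by 0.28 (adjusted p = 0.000582).

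Of 12 tested further BMP response genes, 4 were called higher, 4 lower and 4 did not pass (median -0.08). Over all tested genes, 23.6% were called higher and 24.5% lower. DLX5, a homeobox gene of bone and limb, rose from 9.11, 4.43 and 7.73 to 24.5, 28.8 and 32.6, and GATA2 from 19.4, 11.5 and 22.3 to 54.0, 45.9 and 61.4. TGIF2, a SMAD corepressor that lies in the same run of genes as ID1, rose from 33.7 ± 6.53 to 114 ± 17.0 (SD, n = 3). RUNX2, a regulator of bone formation, rose 1.54-fold (adjusted p = 1.70e-05). GATA3, a regulator of the nephric duct, fell from 470 ± 52.9 to 142 ± 24.2 (SD, n = 3), and KLF10, an early TGF-beta target, fell by 0.65 (adjusted p = 2.28e-07). Also called lower, and named beyond the limit of 6 per list, were TBX2 (log2 fold change -0.84, adjusted p = 0.00843) and HES1 (-0.30, adjusted p = 0.00571). The 4 that did not pass were MSX1 (log2 fold change 0.04), HEY1 (-0.26), JUNB (-0.11) and TGIF1 (-0.04). Their adjusted p-values were 0.895, 0.602, 0.258 and 0.510. ATOH8, reported as a SMAD1 target in endothelium and liver and chosen after its values were seen, lay under the filter at 2.28, 2.65 and 0 in WT against 16.7, 7.20 and 21.1 in KO. With no filter its log2 fold change was 2.69 (adjusted p = 0.00142). Among E-proteins, TCF12 rose 1.38-fold (adjusted p = 1.31e-05), and of the 4 tested partners and cell cycle inhibitors it was the single call.

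**Figure D4:**
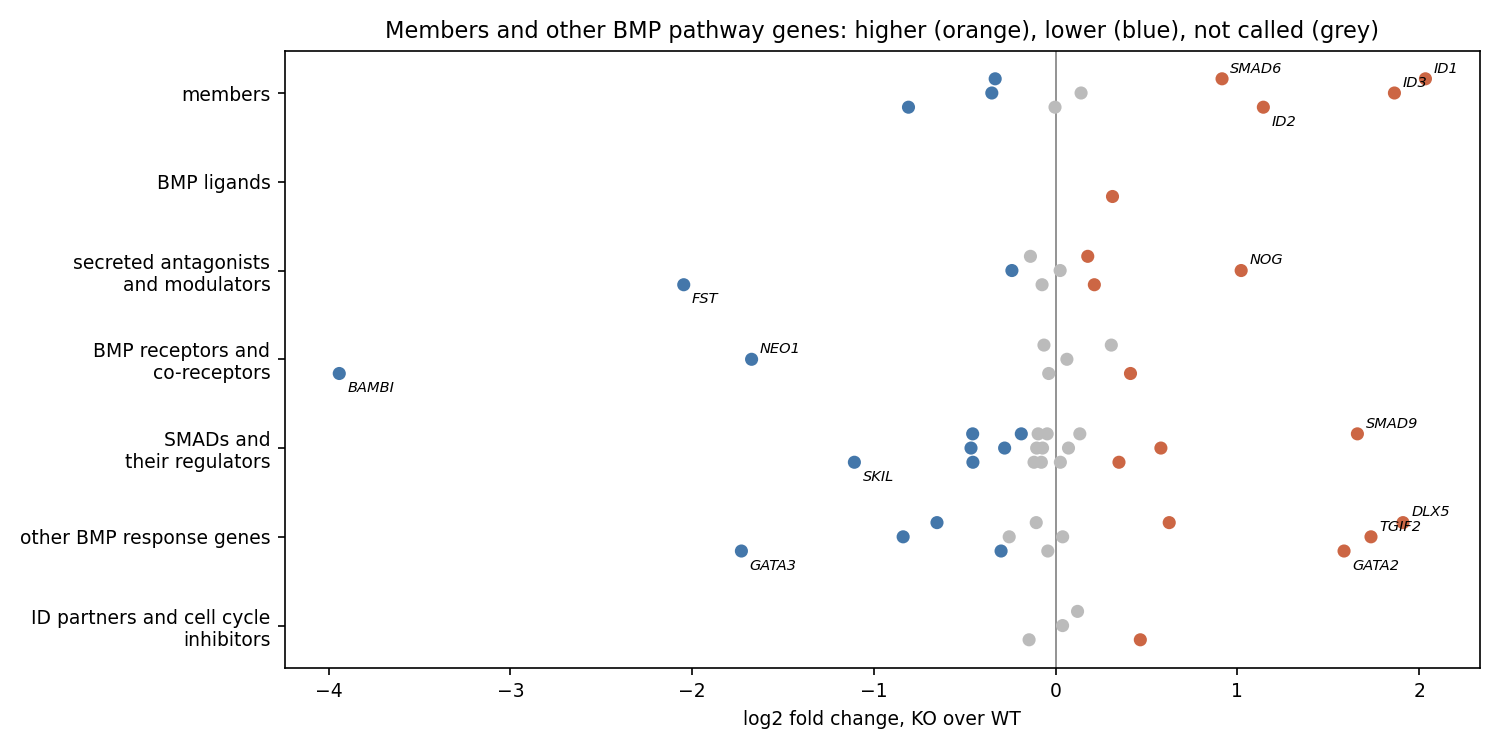
Log2 fold change (KO over WT) of the 9 tested members and of the tested genes of the 6 further lists, each point a gene, orange where called higher, blue where called lower and grey where not called; FSTL1, listed at 0 in every KO library, is left out. ID1 and ID3 lie at the upper end with DLX5, TGIF2, SMAD9 and GATA2, ID2 lies near NOG, and BAMBI lies lowest at -3.94. DLX5 passed the filter on low values only through its KO libraries.

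For each tested ID gene, the 3 genes with the nearest pattern were found by Euclidean distance between mean-centred log2 values over the 6 libraries, which rest on 2 groups and so mostly reflect the size of the KO difference. ID1 was nearest to COL4A2, a collagen IV chain (distance 0.131), followed by the chemokine receptor CXCR4 (0.236) and FGFRL1 (0.248). COL4A2 was at 436, 452 and 556 in WT against 2028, 1992 and 2031 in KO, with WT replicate 3 the highest WT library as for ID1. ID2 was nearest to FGFR1 (0.0856), MCC (0.111) and the fatty acid transporter gene SLC27A1 (0.123). ID3 was nearest to SP5 (0.158), PIWIL4 (0.161) and adenosine deaminase, ADA (0.162), of which ADA lies in the run from SMOX to UBE2V1. PIWIL4, at 5.69, 5.30 and 6.87 in WT, passed the filter on low values only through its KO libraries (25.5, 24.3 and 24.0).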

How the data were processed

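Poly-A RNA from 3 WT and 3 KO libraries was sequenced in a stranded protocol, per the labels' protocols. Per the submitters' processing notes, the tools were DESeq2 1.14.1, featureCounts, FastQC, Picard 2.8.1 and STAR 2.5.2b. The genome build is not given in the sources used here, so no coordinates are reported. The authors deposited, for each library, a normalized count per gene, a signal in fractional units. Between 72.2% and 81.0% of values under 12 lay within 0.1 of a multiple of the best-fitting step of their library. Most low values thus followed a step, but not all did, and raw counts were not recovered. Read depth is therefore unknown here, and no count test was run. Per the file headers, the authors also deposited a mean, a log2 fold change, its standard error and a score (fold change over error), and p-values before and after adjustment. Divided by that deposited mean, the mean of the 6 libraries reached at most 1.5, as for a mean over 9 libraries. Any further libraries are not analysed here.

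On log2(value + 1), the 12349 genes whose mean reached 10 were tested with limma 3.58.1 in R 4.3.3 (trend and robust options, statmod 1.5.0, two-sided, Benjamini-Hochberg, threshold 0.05). The step was checked on simulated data. Gene order came from UU_Cfam_GSD_1.0, where 97.9% of tested symbols had a place. The members and lists were chosen with earlier results of these data known, and no list was tested as a set. Named were the members, CDH1, and up to 6 called genes per list with the smallest adjusted p. Also named were the 3 genes nearest in pattern to each tested ID gene, and nearest neighbours (only those of ID1, ID2, SMAD6 and BMP2). Alternatives were 3 rescalings, other pseudocounts, filters and limma options, a replicate block, each library left out, and the authors' calls.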

Additional observations from a re-analysis of the deposited data

Results flagged for a closer look

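The authors' deposited mean is a column that the comparison of the 6 libraries did not use, and for several members it lies above the WT level. If it is a mean over 9 libraries, as its ratio to the 6-library mean allows, the further 3 libraries had a mean of 93.8 normalized counts for ID4, against at most 6.88 in any of the 6 libraries. The same arithmetic gives 2669 for ID1, 1309 for ID3, 865 for SMAD6, 268 for BMP2, 981 for BMPR1A and 874 for BMPR2, each above all 6 libraries. For ID2 it gives 1775, above the WT libraries and below the KO ones. SMAD1 (503) and BMP4 (423) came out below all 6 libraries. Which cells any further libraries came from is not known.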

How the results depend on the processing

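The counts of 4 members called higher and 3 lower held under all 16 alternatives, with the exception that without WT replicate 2 there were 5 higher, BMPR1A being the addition. Log2 fold changes ranged over 1.95 to 2.18 for ID1, 1.10 to 1.22 for ID2, 1.77 to 1.92 for ID3, 0.87 to 0.96 for SMAD6, -0.42 to -0.26 for SMAD1, -0.37 to -0.31 for BMP4 and -0.93 to -0.72 for BMP2. Over all tested genes, 2493 to 3141 were called higher and 2559 to 3118 lower. Some genes that did not pass changed sign: BMPR2 with upper quartile rescaling (0.017) and over the libraries left out (-0.12 to 0.070), SMAD5 (-0.086 to 0.022) and BMPR1B (-0.092 to 0.012) over the libraries left out, and FERMT1 with quantile normalization (-0.12) and over the libraries left out (-0.14 to 0.14). The cause was not tested. The replicate block gave 3000 genes higher and 3118 lower and changed no call among the members. Deviations of same-numbered libraries had correlations of -0.04 to 0.05. With 3 libraries per group these values cannot decide whether the numbers pair the samples, which the labels do not state. Read depth is unknown, so what it limits for low transcripts such as ID4 cannot be given.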
